A study of Drosophila melanogaster with 9 samples.

Results

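The genes described here encode the protein components of the mitochondrial ribosome, followed in dissected brains of Drosophila melanogaster aged 3, 30 and 60 days. They were taken by name: every gene with a probe set of its own whose symbol begins with mRpL (large subunit) or mRpS (small subunit) followed by a number, together with bonsai, the fly homologue of the bacterial small-subunit protein S15. This gave 70 genes, 44 of the large and 26 of the small subunit, out of 11982 genes with a probe set of their own. For the 2 genes with more than 1 probe set, mRpL47 and mRpS11, the probe set with the highest mean stood for the gene. A further 4 symbols of the same naming scheme in the reference table, mRpL34, mRpL37, mRpL53 and mRpS10, had no probe set of their own and are not among the 70.

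RNA was measured on 9 Affymetrix Drosophila 2.0 arrays, 3 at each age, written here as 3d, 30d and 60d. Per the labels, the flies of all 3 ages were kept on cornmeal molasses food with dry yeast and aged naturally, with no other treatment named. The labels give no strain, sex or number of brains per array, and they do not say whether the 3 arrays of an age came from separate flies, so p-values measure the spread between these arrays only. The arrays held RNA of whole dissected brains, in which fewer cells of a type and less RNA per cell cannot be told apart.

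Mitochondria keep a small genome of their own and translate its few messages, all for subunits of the respiratory chain and ATP synthase in animals, on a dedicated ribosome. Its RNAs come from the mitochondrial genome, whereas all of its proteins are encoded in the nucleus, made in the cytoplasm and imported. Part of these proteins have a counterpart in bacteria, and the others were added during mitochondrial evolution. Brain tissue depends on respiration for most of its ATP.

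Levels are given as log2(signal + 1), where the signal is the authors' linear intensity scaled to a common mean per array, and differences are log2 differences between age means with their standard error. Such a level belongs to 1 probe set and cannot be set against that of another. A gene was tested if at least 3 arrays lay above 5.73, the 40th percentile of all log2 values. This left 8121 genes in all and 68 of the 70, with 42 large-subunit and 26 small-subunit genes. None of the 68 passed the filter through the 3d arrays alone. The genes left out of the main test were mRpL21, with levels of 5.15, 5.97 and 6.18 at 3d, 5.22, 5.20 and 5.21 at 30d and 5.54, 5.29 and 5.08 at 60d, and mRpL54, with 5.67, 6.08 and 6.07, then 4.92, 5.29 and 4.92, then 5.65, 5.20 and 5.38. In a fit without the filter mRpL54 fell at 30d (-0.90 ± 0.19, adjusted p = 0.0111) and mRpL21 did not pass (-0.56 ± 0.24, adjusted p = 0.0943), and neither passed at 60d. A gene is said to have risen or fallen where limma's Benjamini-Hochberg adjusted p over all 8121 genes was under 0.05.

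In its control ratios 1 array stood apart. On 3d replicate 1 the log2 ratio of the 3′ to the 5′ control probe set was 5.03 for GAPDH, against 1.58 to 2.07 on the other 8 arrays, and 6.76 for eIF-4a, against 2.57 to 3.23. For 18S rRNA it was 1.29, against 0.48 to 0.84, and for actin 0.55, within the -0.65 to 0.58 of the other arrays. On that array 20 of the 68 tested genes (29.4%) lay more than 0.5 below both other 3d arrays, against 12.4% of all genes tested, and 1 gene, mRpL9, lay as far above them. Markers of neurons were present, with a summed signal of 9956 to 10500 at 3d, 7917 to 8963 at 30d and 7661 to 8347 at 60d over 10 of 12 listed genes.

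Seen together, the mitochondrial ribosomal protein genes had their highest medians at 3d, their lowest at 30d and intermediate ones at 60d. The median over the 68 tested genes, relative to each gene's 3d mean, was -0.25, 0.10 and 0.13 on the 3d arrays. It was -0.44, -0.57 and -0.40 on the 30d arrays and -0.17, -0.48 and -0.32 on the 60d arrays. Every 30d array therefore lay below every 3d array, while 60d replicate 1 lay above 3d replicate 1. The 30d and 60d arrays overlapped, with 60d replicate 2 below 30d replicates 1 and 3. Over all 8121 genes the same medians stayed between -0.03 and 0.04.

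**Figure D1:**
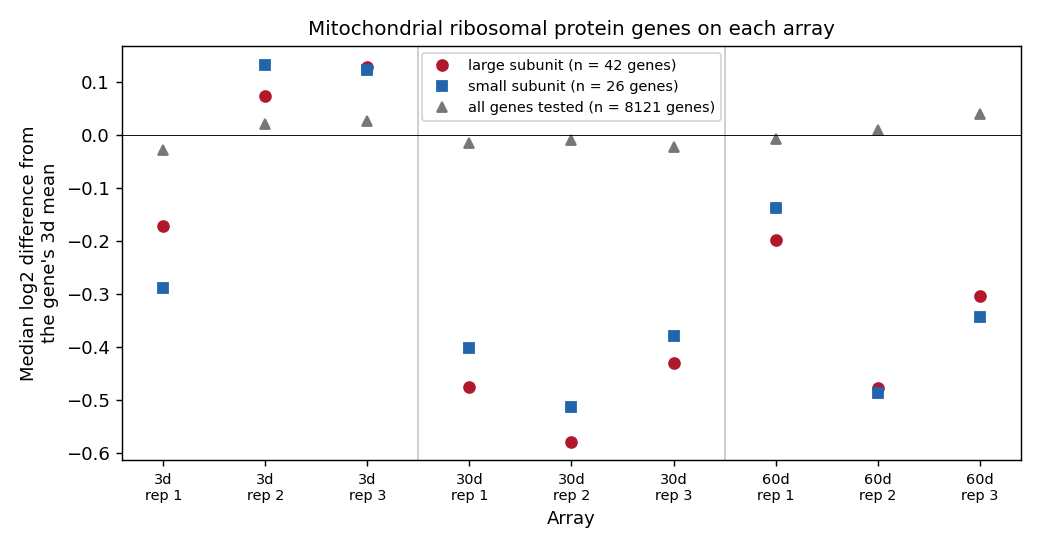
Median log2 difference from each gene's own 3d mean (y axis) on each of the 9 arrays (x axis), for the 42 large-subunit genes (circles), the 26 small-subunit genes (squares) and all 8121 genes tested (triangles). Both subunits lay between -0.38 and -0.58 on the 30d arrays, whereas the medians over all genes stayed within -0.03 and 0.04.

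Both subunits had this course. Large-subunit medians were -0.17, 0.08 and 0.13 at 3d, -0.48, -0.58 and -0.43 at 30d and -0.20, -0.48 and -0.30 at 60d. Small-subunit medians were -0.29, 0.13 and 0.12 at 3d, -0.40, -0.51 and -0.38 at 30d and -0.14, -0.49 and -0.34 at 60d. In the plot of array medians the points of the 2 subunits sit side by side, and they lie furthest apart on 3d replicate 1. Of the 68 genes, 56 had their lowest mean at 30d, against 40.5% of all genes tested, 9 at 60d, against 16.4%, and 3 at 3d, against 43.2%. With the 2 filtered genes included, the count at 30d was 58 of 70, against 31.7% of all genes with a probe set.

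The comparison of 30d with 3d held the largest changes. At 30d 34 of the 68 genes fell and none rose, against 21.4% of all genes that fell and 20.9% that rose, all by limma at an adjusted p under 0.05. At an unadjusted p under 0.05 the counts were 48 lower and 0 higher, against 26.6% and 26.1% of all genes. Of the large subunit 24 of 42 fell and of the small subunit 10 of 26. The median difference was -0.49 in the large and -0.43 in the small subunit, each larger than the replicate SD of the subunit median (0.16 and 0.17), beside -0.02 over all genes tested. Over all 70 genes, tested or not, 66 had a lower mean at 30d and the median was -0.49. All 3 arrays at 30d lay below all 3 at 3d for 40 of the 68 genes, against 29.7% of all genes.

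Among large-subunit genes the fall was deepest in mRpL28, the counterpart of bacterial L28. Its levels were 6.91, 6.93 and 7.10 at 3d and 6.08, 6.05 and 5.97 at 30d, followed by 6.60, 6.21 and 6.33 at 60d. The 3 ages did not overlap, and 60d lay between the others. The 30d level was 52.0% of the 3d level on the signal scale, a difference of -0.94 ± 0.14 (SE, n = 3 arrays per age, adjusted p = 0.00238). The counterpart of bacterial L16, a protein beside the tRNA-binding sites of the peptidyl transferase centre, followed the same course. mRpL16 measured 7.05, 7.30 and 7.25 at 3d, 6.42, 6.41 and 6.35 at 30d and 6.86, 6.82 and 6.66 at 60d. Its arrays fell into 3 separate ranges by age, and the fall to 30d was -0.81 ± 0.13 (adjusted p = 0.00255).

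mRpL51, which has no bacterial counterpart by its number, had levels of 7.84, 7.69 and 7.84 at 3d, 6.97, 6.99 and 7.0 at 30d and 7.30, 6.88 and 7.12 at 60d. The 30d arrays lay within a narrow band, and the 60d arrays lay on both sides of it, all below 3d. The fall to 30d was -0.81 ± 0.14 (adjusted p = 0.00309).

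The counterparts of the bacterial stalk proteins were not all called at 30d, and differences between these genes were not tested. mRpL12, whose bacterial counterpart forms the stalk that recruits elongation factors, fell by 0.74, and mRpL10, whose counterpart anchors that stalk, fell by 0.47. mRpL1, of the stalk beside the tRNA exit site in bacteria, fell by 0.65. mRpL11, whose counterpart lies at the base of the elongation-factor stalk, did not pass (-0.25 ± 0.15, adjusted p = 0.202). It read 7.62, 8.07 and 8.07 at 3d and 7.73, 7.55 and 7.75 at 30d, with 3d replicate 1 among the 30d arrays. Under the 21 other settings run, mRpL11 passed at 30d in 5, mRpL10 in 18, and mRpL12 and mRpL1 in all 21. The mRpL12 arrays read 8.15, 8.44 and 8.52 at 3d, 7.71, 7.52 and 7.66 at 30d and 7.92, 7.72 and 7.91 at 60d, so that every older array lay below every 3d array. Those of mRpL1 read 8.59, 8.79 and 8.89, then 8.17, 8.11 and 8.05, then 8.45, 8.19 and 8.19, with the same separation.

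mRpL20 fell by 0.55 and mRpL24 by 0.62. mRpL3, mRpL4 and mRpL22 differed by -0.49 ± 0.20, -0.60 ± 0.26 and -0.31 ± 0.17 and did not pass. mRpL44, which carries a ribonuclease III-like domain in mammals, fell by 0.70, and mRpL38, a relative of phosphatidylethanolamine-binding proteins, fell by 0.65. The remaining bacterial-type genes that fell were mRpL13 (-0.34), mRpL17 (-0.49), mRpL32 (-0.46), mRpL35 (-0.60) and mRpL36 (-0.38). The remaining genes with higher numbers were mRpL39 (-0.37), mRpL40 (-0.43), mRpL41 (-0.58), mRpL42 (-0.69), mRpL43 (-0.67), mRpL47 (-0.59), mRpL48 (-0.67), mRpL49 (-0.63) and mRpL50 (-0.51). Adjusted p ran from 0.00238 to 0.0487 over the 24 genes.

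In the small subunit bonsai had the largest difference of all 68 genes. Its levels were 7.63, 8.26 and 8.19 at 3d and 6.97, 7.05 and 7.07 at 30d, and 7.62, 7.06 and 7.29 at 60d. Neither older age overlapped with 3d, although 60d replicate 1 lay just under 3d replicate 1. At 30d the level was 50.1% of that at 3d, a difference of -1.0 ± 0.19 (adjusted p = 0.0044). Fly mutants of bonsai are known for growth and mitochondrial defects.

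mRpS9, whose bacterial counterpart reaches to the P-site tRNA, had a similar fall. It measured 7.93, 8.38 and 8.36 at 3d, 7.07, 7.27 and 7.37 at 30d and 7.89, 7.35 and 7.41 at 60d, and the difference at 30d was -0.99 ± 0.18 (adjusted p = 0.0039). The 60d arrays overlapped with the 30d arrays, and 60d replicate 1 stood close to 3d. mRpS33 read 8.98, 8.89 and 8.99 at 3d, 8.18, 8.06 and 8.09 at 30d and 8.42, 8.05 and 8.38 at 60d, with a fall of -0.85 ± 0.14 at 30d (adjusted p = 0.00256). mRpS30, named for the small subunit although its mammalian counterpart sits in the large one, read 7.65, 7.19 and 7.41, then 6.54, 6.48 and 6.64, then 6.82, 6.55 and 6.75. In both, every 30d and 60d array lay below every 3d array. The mRpS30 fall at 30d was -0.87 ± 0.15 (adjusted p = 0.00311).

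The other small-subunit genes that fell at 30d were mRpS2 (-0.73), mRpS22 (-0.69), mRpS28 (-0.66), mRpS16 (-0.63), mRpS24 (-0.62) and mRpS18C (-0.44). Adjusted p ran from 0.00256 to 0.0461 over the 10 genes. mRpS14 had a larger difference than most of these (-0.71 ± 0.27) but did not pass, with an adjusted p of 0.0506 and 3d arrays spread over 5.66, 5.89 and 6.59. mRpS5, whose bacterial counterpart lines the entry of the mRNA channel, differed by -0.20 ± 0.19, and mRpS29, the GTP-binding protein also known as DAP3, by -0.35 ± 0.16. Neither passed.

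**Figure D2:**
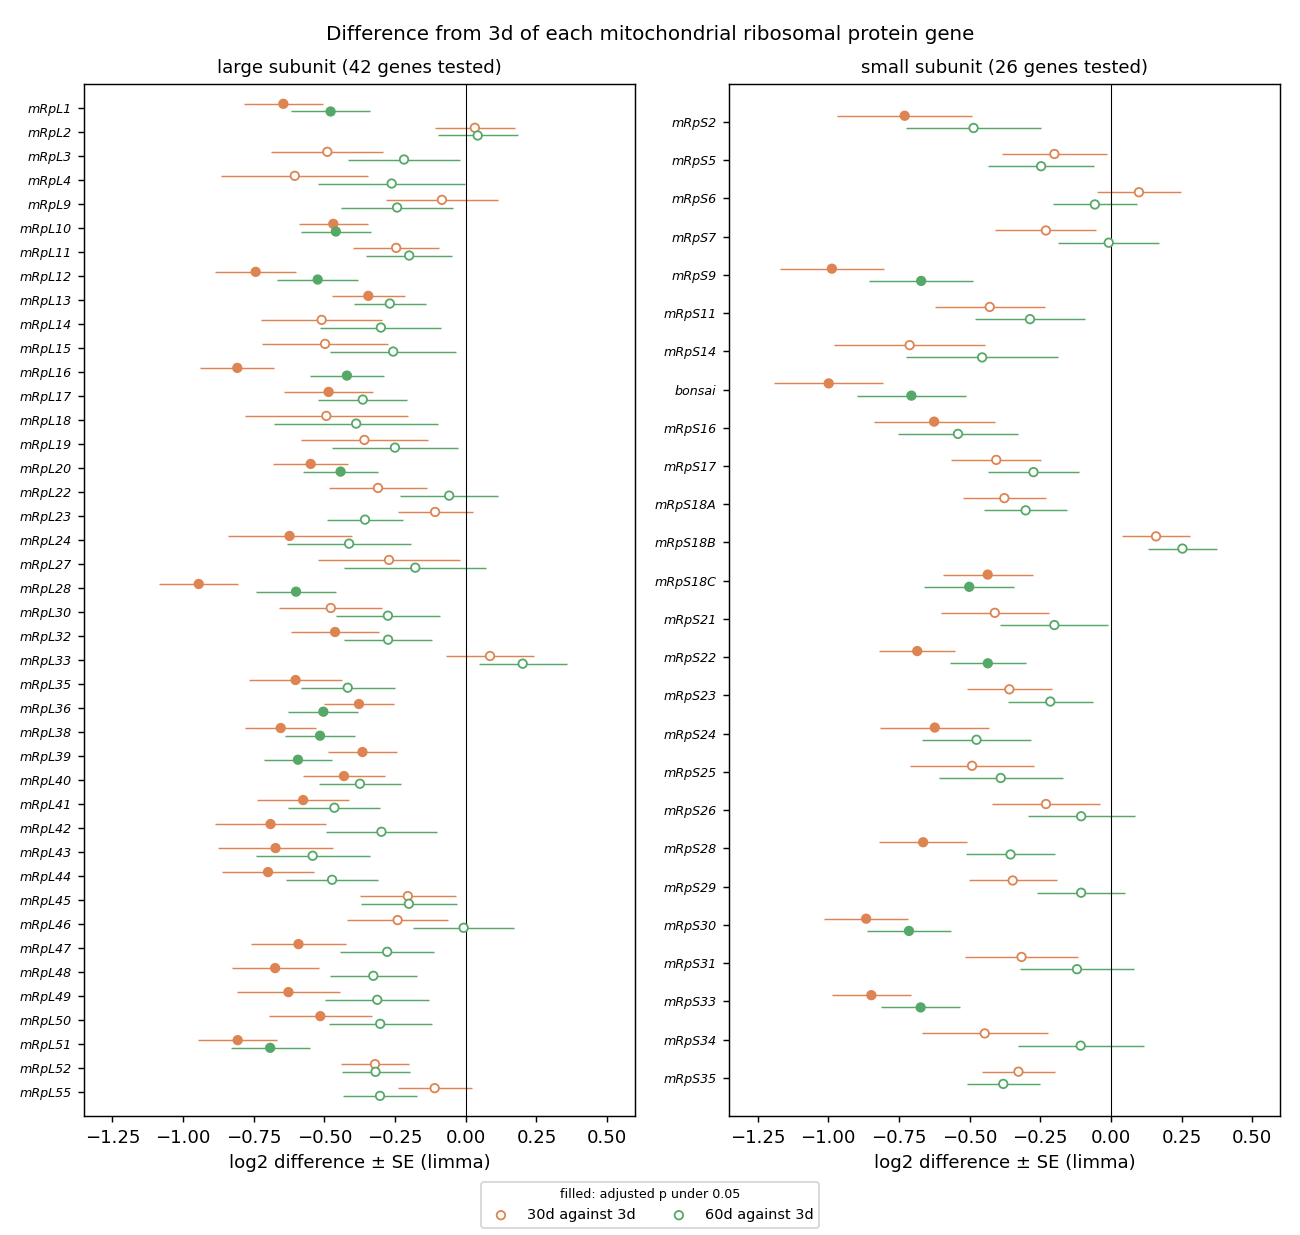
log2 difference from 3d (x axis, with standard error bars from limma) of each of the 42 large-subunit and 26 small-subunit genes tested (y axis), at 30d (orange) and 60d (green). Filled points passed at an adjusted p under 0.05: 34 genes at 30d and 16 at 60d, all to the left of 0.

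The count of 34 depended on which arrays entered. It was 58 without 3d replicate 1, beside 29.3% of all genes lower, 16 without 3d replicate 3, beside 10.8%, and 17 to 21 without 3d replicate 2 or any 1 of the 30d arrays, beside 10.8% to 18.7%. In the plot of differences nearly all points lie left of 0, with the 30d point to the left of the 60d point for most genes.

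The comparison of 60d with 3d asked what remained of this at the oldest age. At 60d 16 of the 68 genes were lower than at 3d and none was higher, against 10.6% and 8.08% of all genes by limma. At an unadjusted p under 0.05 the counts were 29 lower and 0 higher, against 17.8% and 17.6% of all genes. The 16 comprised 10 of 42 large-subunit and 6 of 26 small-subunit genes. Medians were -0.32 in the large and -0.33 in the small subunit, larger than the replicate SDs of these medians (0.18 and 0.20), beside 0.04 over all genes tested. Over all 70 genes 67 had a lower mean at 60d than at 3d. All 60d arrays lay below all 3d arrays for 26 of the 68, against 17.7% of all genes. Both comparisons use the same 3d arrays.

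The smallest adjusted p in the large subunit belonged to mRpL51, at 61.9% of its 3d level (-0.69 ± 0.14, adjusted p = 0.00764). Next came mRpL39, whose mammalian counterpart shares a domain with threonyl-tRNA synthetases. Its levels were 7.74, 7.78 and 7.65 at 3d, 7.35, 7.32 and 7.40 at 30d and 7.15, 7.06 and 7.18 at 60d. Its mean was lower at each later age, with 3 separate ranges and a spread of at most 0.07 (SD) within an age. Its difference at 60d was -0.59 ± 0.12 (adjusted p = 0.00805), and that between 60d and 30d, -0.23 ± 0.12, did not pass (adjusted p = 0.39).

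mRpL36, the counterpart of a very small zinc-binding protein of bacteria, was likewise lowest at 60d. It measured 7.26, 7.13 and 7.30 at 3d, 6.93, 6.81 and 6.82 at 30d and 6.65, 6.79 and 6.74 at 60d, a difference of -0.50 ± 0.12 at 60d (adjusted p = 0.0183). mRpL28 was at 66.0% of its 3d level (-0.60 ± 0.14, adjusted p = 0.0149). mRpL38 read 7.07, 7.01 and 7.15, then 6.33, 6.51 and 6.43, then 6.65, 6.49 and 6.55, and differed by -0.52 ± 0.13 at 60d (adjusted p = 0.0174). For both, no 60d array reached the 3d range.

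mRpL10 measured 7.20, 7.27 and 7.39 at 3d, 6.81, 6.83 and 6.81 at 30d and 6.84, 6.88 and 6.75 at 60d. It lay at one level on all 6 older arrays, -0.46 ± 0.12 from 3d at 60d (adjusted p = 0.0257). Its partner in the stalk, mRpL12, differed by -0.52, mRpL1 by -0.48, mRpL20 by -0.44 and mRpL16 by -0.42, with adjusted p from 0.0272 to 0.0444. mRpL11 differed by -0.20 ± 0.15 at 60d and did not pass.

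In the small subunit the smallest adjusted p belonged to mRpS33 (-0.67 ± 0.14, adjusted p = 0.00856) and mRpS30 (-0.71 ± 0.15, adjusted p = 0.00923). bonsai differed by -0.71 ± 0.19 (adjusted p = 0.027) and mRpS9 by -0.67 ± 0.18 (adjusted p = 0.0278). mRpS22 read 7.07, 7.38 and 7.32 at 3d, 6.64, 6.51 and 6.57 at 30d and 6.93, 6.73 and 6.80 at 60d, a difference of -0.44 ± 0.14 at 60d (adjusted p = 0.0447). All older arrays lay below the 3d arrays, and 60d lay above 30d.

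mRpS18C is 1 of 3 fly genes related to a single bacterial protein, S18, and the only one of these to pass the test. mRpS18C measured 6.78, 6.41 and 6.39 at 3d, 6.22, 5.90 and 6.16 at 30d and 6.20, 5.99 and 5.88 at 60d, a fall of -0.50 ± 0.16 at 60d (adjusted p = 0.0485). mRpS18A differed by -0.38 ± 0.15 at 30d and -0.30 ± 0.15 at 60d, neither past the threshold. mRpS18B read 7.52, 7.54 and 7.59 at 3d, 7.64, 7.76 and 7.72 at 30d and 7.80, 7.88 and 7.73 at 60d. In mRpS18B every older array lay above every 3d array, the only one of the 68 genes with that order in either comparison, against 28.2% of all genes at 30d and 13.5% at 60d. Its differences of 0.16 ± 0.12 and 0.25 ± 0.12 did not pass (adjusted p = 0.298 and 0.159). Differences between the 3 genes were not tested.

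**Figure D3:**
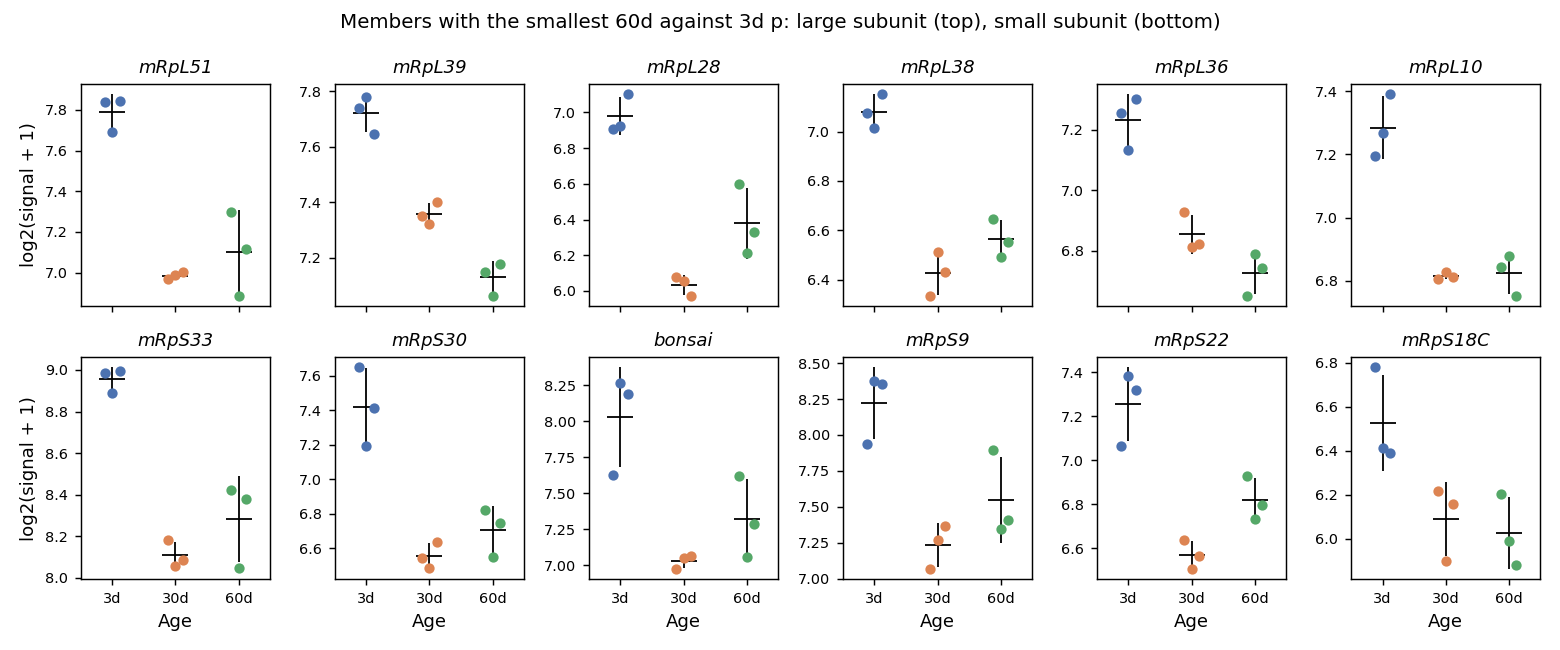
Level as log2(signal + 1) (y axis, own range in each panel) at 3d, 30d and 60d (x axis) of the 6 large-subunit (top) and 6 small-subunit (bottom) genes with the smallest p among those that fell at 60d. Points are arrays, horizontal bars means and vertical bars SD (n = 3 arrays), and no older array reaches the 3d range in any panel.

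In the plot of single genes, mRpL39, mRpL36 and mRpS18C have their lowest mean at 60d, and the other 9 have it at 30d. The calls at 60d numbered 36 without 3d replicate 1, beside 14.7% of all genes lower, and 55 without the first arrays of both ages, beside 24.9%. They numbered 4 of 68 without 3d replicate 3 or without 60d replicate 3, beside 4.91% and 4.69%, and 3 of 68 with the 6 arrays of the compared ages alone, beside 3.93%, so that under these settings the share was near that of all genes. They numbered 8 or 9 without 3d replicate 2, 60d replicate 2 or any 1 of the 30d arrays, beside 6.08% to 10.4%. mRpL51, mRpS30 and mRpS33 were lower under all 21 other settings run.

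Between 30d and 60d no gene passed the test in either direction by limma, against 0.542% of all genes called, 0.0123% lower and 0.529% higher, and 3 genes, all higher at 60d, had an unadjusted p under 0.05, against 9.78% of all genes. These were mRpL16 (0.39 ± 0.13, adjusted p = 0.217), mRpL28 (0.34 ± 0.14, adjusted p = 0.294) and mRpL48 (0.35 ± 0.15, adjusted p = 0.32). Most means pointed up, 59 of 68, with a median of 0.14 in the large and 0.15 in the small subunit, beside 0.02 over all genes. The replicate SDs of these medians were 0.10 and 0.13. All 60d arrays lay above all 30d arrays for 13 of the 68 genes, a share near the 17.2% of all genes. The 13 were mRpL1, mRpL4, mRpL12, mRpL15, mRpL16, mRpL22, mRpL24, mRpL28, mRpL42, mRpL47, mRpS7, mRpS22 and mRpS28. For 4 genes, mRpL23, mRpL36, mRpL39 and mRpL55, all 60d arrays lay below all 30d arrays, against 10.1% of all genes. With weights for array quality 38 genes were higher and 6 lower, beside 32.5% and 24.9% of all genes.

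mRpL23, whose bacterial counterpart stands at the exit of the protein tunnel, had the most negative difference of 60d from 30d (-0.25 ± 0.13, adjusted p = 0.397). It measured 8.62, 8.91 and 8.72 at 3d, 8.71, 8.70 and 8.51 at 30d and 8.34, 8.45 and 8.39 at 60d. The 3d and 30d ranges overlapped and all 60d arrays lay below both. The difference of 60d from 3d was -0.36 ± 0.13 (adjusted p = 0.0799).

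Whether the change from 30d to 60d differed from that from 3d to 30d was tested directly. For 16 of the 68 genes it did, all with a positive difference between the intervals, against 10.2% of all genes in that direction. All 16 had fallen at 30d and had a mean at 60d between those of 30d and 3d. Their 60d means lay above 30d by 0.115 (mRpL51) to 0.39 (mRpL42), and none passed that comparison. They were 10 large-subunit and 6 small-subunit genes, with differences between the intervals from 0.79 to 1.30. The smallest adjusted p belonged to mRpL16 (1.2 ± 0.23) and mRpL28 (1.29 ± 0.24), both 0.0308, followed in the large subunit by mRpL12 (0.96 ± 0.25, adjusted p = 0.0353). In the small subunit they were mRpS33 (1.02 ± 0.24, adjusted p = 0.0324), mRpS9 (1.30 ± 0.32, adjusted p = 0.0334) and mRpS22 (0.93 ± 0.23, adjusted p = 0.0341).

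The others were mRpL1, mRpL38, mRpL42, mRpL44, mRpL47, mRpL48, mRpL51, bonsai, mRpS28 and mRpS30. All adjusted p lay between 0.0308 and 0.0499. The count went to 0 with any 30d array, 3d replicate 3 or 60d replicate 3 left out, and with no filter, to 9 without 60d replicate 1 and to 44 without 3d replicate 1. An F-test over the 3 ages called 23 of the 68 genes, 17 large and 6 small, a share near the 34.1% of all genes. It called 53 without 3d replicate 1 but 11 to 13 without 3d replicate 3 or any 1 of the 30d arrays.

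**Figure D4:**
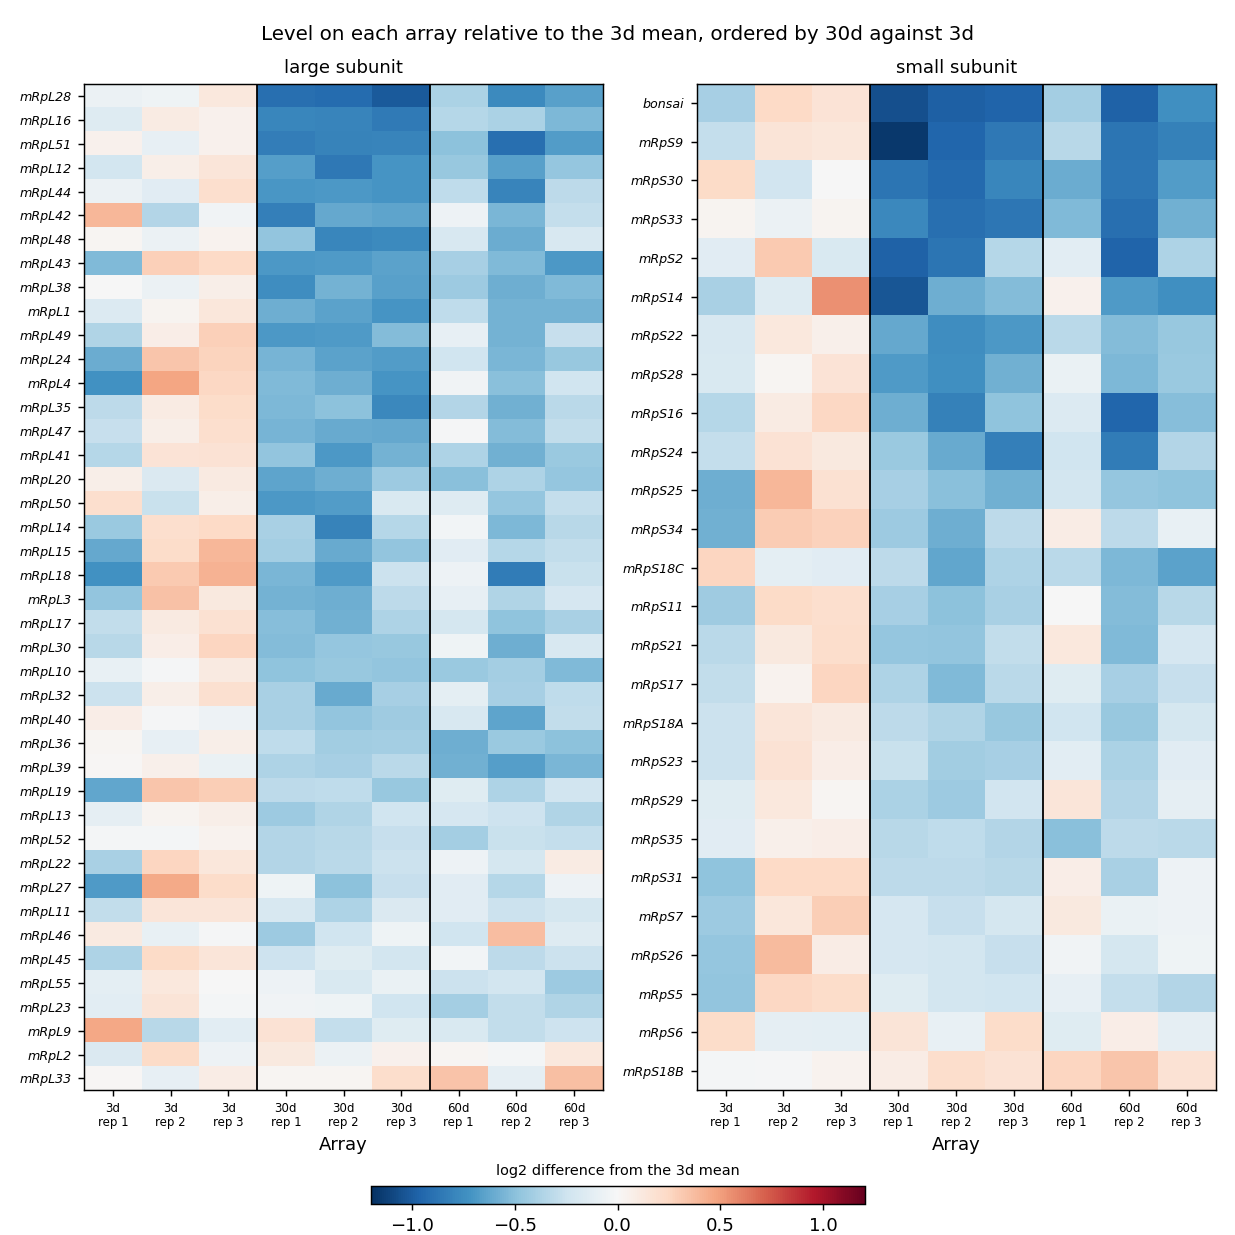
log2 difference from the 3d mean (colour scale) of each of the 42 large-subunit and 26 small-subunit genes tested (rows, ordered by their difference between 30d and 3d) on each of the 9 arrays (columns). Blue fills most of the 6 columns of 30d and 60d, with paler cells on 60d replicate 1 and blue cells on 3d replicate 1 for the 20 genes that lay more than 0.5 below both other 3d arrays.

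For some genes the ages overlapped throughout. In the large subunit the smallest differences at 60d were those of mRpL46 (-0.01 ± 0.18) and mRpL2 (0.04 ± 0.14), the latter the counterpart of the bacterial L2 at the peptidyl transferase centre. mRpL2 read 7.67, 8.08 and 7.79 at 3d, 7.96, 7.78 and 7.90 at 30d and 7.87, 7.83 and 7.97 at 60d, with full overlap. mRpL46 read 7.60, 7.41 and 7.48, then 7.06, 7.26 and 7.45, then 7.26, 7.87 and 7.35. mRpL33 had a higher mean at both older ages (0.09 ± 0.16 and 0.20 ± 0.16), without passing.

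In the small subunit the smallest were mRpS7 (-0.01 ± 0.18) and mRpS6 (-0.06 ± 0.15). mRpS6 read 7.46, 7.14 and 7.13 at 3d, 7.40, 7.16 and 7.47 at 30d and 7.10, 7.32 and 7.14 at 60d, again overlapping. mRpS7 read 9.05, 9.63 and 9.78, then 9.28, 9.20 and 9.28, then 9.60, 9.41 and 9.43. In mRpS7 the 3d replicate 1 value lay 0.57 below its neighbours, so that the 3d range spanned both other ages.

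mRpS5 measured 10.004, 10.72 and 10.69 at 3d, 10.33, 10.26 and 10.24 at 30d and 10.37, 10.19 and 10.12 at 60d. On the other 3d arrays mRpS5 lay above every older array, and 3d replicate 1, 0.69 below both of them, lay under every older array. In mRpL24, 3d replicate 1 likewise lay among the older arrays, at 8.41, 9.34 and 9.28, then 8.45, 8.36 and 8.34, then 8.77, 8.46 and 8.55. mRpL35 read 6.0, 6.41 and 6.53, then 5.78, 5.82 and 5.54, then 5.96, 5.74 and 5.99, with no overlap between 3d and either older age. mRpS14 had 5.02, 5.46 and 5.53 at 30d and 6.10, 5.37 and 5.31 at 60d.

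The share of genes of the bacterial type was compared with that of genes without a bacterial counterpart, using the protein number as the guide (up to 36 in the large and 21 in the small subunit, plus bonsai). At 30d 17 of 40 bacterial-type genes fell, with a median of -0.47, and 17 of 28 others, with a median of -0.54. At 60d 10 of 40 and 6 of 28 were lower, with medians of -0.29 and -0.34. Within the large subunit 12 of 26 and 12 of 16 fell at 30d, and 7 of 26 and 3 of 16 were lower at 60d. Within the small subunit these counts were 5 of 14 and 5 of 12 at 30d, and 3 of 14 and 3 of 12 at 60d. On 3d replicate 1 the medians relative to the 3d mean were -0.28 and -0.01 in the large subunit. In the small subunit they were -0.31 and -0.22. Differences between these groups were not tested. mRpL47, mRpS24 and mRpS28, numbered as mitochondria-specific, were later placed in bacterial families in mammals, and counted as such the numbers at 30d were 20 of 43 and 14 of 25. With mRpS30 and mRpS18A counted with the large subunit, the subunit counts at 30d were 25 of 44 and 9 of 24.

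Both genes with 2 probe sets gave 1 call and 1 miss at 30d. For mRpL47 the brighter set fell by 0.59 (adjusted p = 0.0189 among all probe sets) and the other differed by -0.23 (adjusted p = 0.492). For mRpS11 the order was turned: the brighter set differed by -0.43 (adjusted p = 0.0949) and the other fell by 1.08 (adjusted p = 0.00845). The second mRpS11 set read 6.73, 7.02 and 7.23 at 3d, 6.18, 5.91 and 5.65 at 30d and 6.83, 5.80 and 6.33 at 60d. The second mRpL47 set read 6.88, 8.11 and 7.92, then 7.48, 7.43 and 7.31, then 7.70, 7.48 and 7.51. Its 3d replicate 1 lay below every older array, and its other 3d arrays lay above every older array. Signs were the same for both sets of each gene.

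Around the ribosome, other genes of mitochondrial gene expression were counted in the same fit. The share of all genes lower was 21.4% at 30d and 10.6% at 60d, and 10% were lower at both, in comparisons that share the 3d arrays. Of the translation factors 3 of 8 tested were lower at each older age: HemK1, a homologue of the methyltransferase that modifies release factors (-1.29 ± 0.19 at 30d, -1.39 ± 0.19 at 60d), and the elongation factors mEFG1 (-0.48 and -0.58) and mEFTu1 (-0.56 and -0.47). The mitochondrial aminoacyl-tRNA synthetases, which charge tRNAs inside the organelle, had 5 of 12 lower at 30d and 3 of 12 at 60d. LeuRS-m (-0.91 and -0.78) and TrpRS-m (-0.62 and -0.67) were lower at both. Among genes that keep or transcribe mitochondrial DNA and RNA, 3 of 9 were lower at 30d and 2 of 9 at 60d. These included the RNA-binding protein bsf (-0.74 and -0.64) and the mitochondrial RNA polymerase PolrMT (-0.69 and -0.63).

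The import machinery, through which every mitochondrial ribosomal protein enters, had 6 of 14 genes lower and 1 higher at 30d, and 3 of 14 lower at 60d. Tom70 (-0.79 and -0.71) is a receptor of the outer membrane and Tom7 (-1.04 and -0.73) a small subunit of the same complex. The gene that rose was Tim17a1 (0.77 ± 0.19 at 30d). The nuclear-encoded subunits of the respiratory chain and ATP synthase, into which the products of mitochondrial translation are built, had 46 of 60 lower and 4 higher at 30d, and 39 of 60 lower and 1 higher at 60d, with medians of -0.77 and -0.64. The difference of these shares and medians from those of the ribosomal proteins was not tested. This list of 71 genes, matched by name, was partial: it lacked Cyt-c-p, for example, and held variants such as COX4L and COX6AL. ND-19 (-1.29 and -1.10) and ND-18 (-1.06 and -0.98) were lower at both ages. COX4L was higher at both (0.82 and 0.55), and COX6AL (0.66) and UQCR-11 (0.60) were higher at 30d.

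The cytoplasmic ribosomal proteins, which translate all nuclear messages, served as a second ribosome. Their list of 41 genes, matched by name, was partial: it lacked RpL4 and RpS3, for example, and held variants such as RpL22-like and RpS28-like. Of 39 tested, 1 was lower and 3 were higher at 30d, and 3 were higher at 60d, by limma at an adjusted p under 0.05. Their medians were -0.08 and 0.07. The 1 that fell was RpL10Ab (-0.50 ± 0.15), and RpL22-like was higher at both ages (0.72 ± 0.19 and 0.71 ± 0.19). The others that were higher were RpL10Aa and RpS19b at 30d and RpS5b and RpS20 at 60d. The 2 listed genes of the mitochondrial ribosome outside the naming scheme, tko, which encodes its S12 protein, and CRIF, did not pass. CRIF differed by -0.19 ± 0.12 and -0.33 ± 0.12, and tko by -0.14 ± 0.17 and -0.12 ± 0.17.

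**Figure D5:**
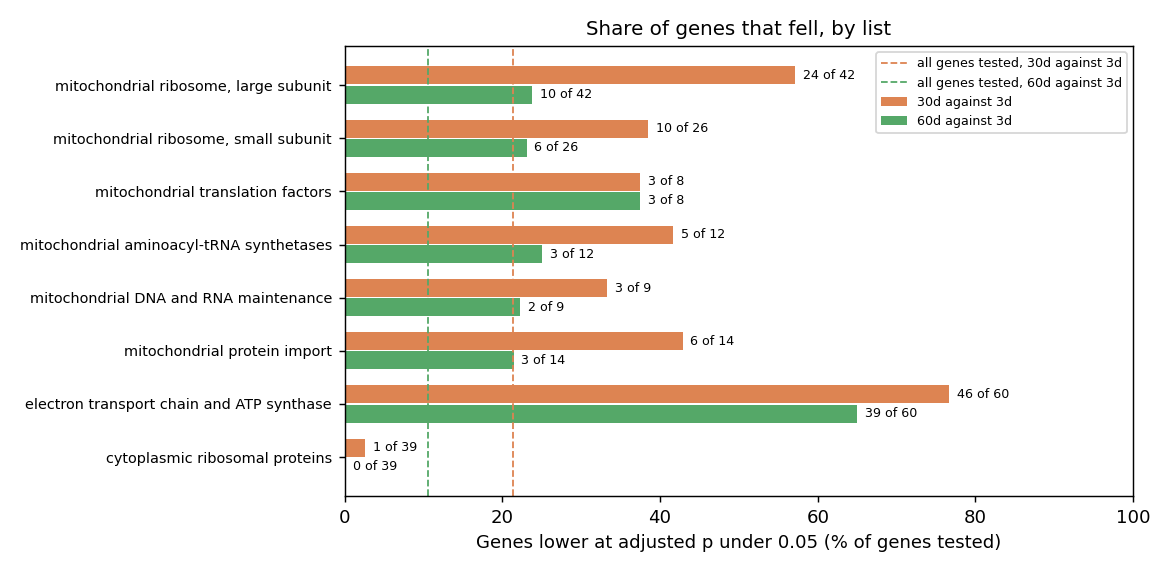
Share of tested genes that were lower than at 3d at an adjusted p under 0.05 (x axis, percent) in the large and small subunit of the mitochondrial ribosome and 6 related gene lists (y axis), at 30d (orange) and 60d (green). Dashed lines are the shares over all 8121 genes, 21.4% and 10.6%, which the mitochondrial lists exceed and the cytoplasmic ribosomal proteins do not reach.

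Markers of several cell types moved with age beside these genes. The summed signal of 11 of 12 listed glial genes was 9858 to 11586 at 3d, 7210 to 8083 at 30d and 7628 to 9023 at 60d, and the neuronal sum given above also had no overlap between 3d and the older ages. Retinal genes, 11 of 15 listed, summed to 14039 to 15134, 11633 to 12603 and 10013 to 11078. The 12 haemocyte genes summed to 2341 to 3024, 1715 to 1834 and 1936 to 2717. These 4 sums were thus lower on every 30d array than on every 3d array, as were the ribosomal protein medians. A sum follows its brightest genes, and the lists were mixed within. Lower at 30d by limma were 3 of 9 tested neuronal, 4 of 11 glial, 7 of 11 retinal and 5 of 11 haemocyte genes. That stands beside 21.4% of all genes. The glial gene Gli (0.63 ± 0.19) and the haemocyte gene srp (0.48 ± 0.18) were higher.

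Muscle genes, 19 of 24 listed, ran the other way, with 3694 to 5003 at 3d, 5210 to 5366 at 30d and 5031 to 5809 at 60d. Fat body genes, 11 of 12, overlapped between ages, at 7605 to 9733, 6542 to 8276 and 6710 to 15997. The markers eater, Fbp1, Act88F and VGlut did not pass the filter and were not tested. The part of cell makeup in the results was not tested.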

How the data were processed

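Total RNA of 9 dissected-brain samples was hybridised to 1-colour arrays. The authors deposited a linear signal intensity per probe set and array. GCRMA and MAS5 are named, per the submitters' processing notes, with neither role nor version. Each array's trimmed mean came to 150.002, and the arrays differed in distribution. Of 18952 probe sets, 183 were controls, 13647 had 1 gene, 402 several and 4720 none in the platform annotation. All 70 symbols were found in the RefSeq gene table, and no coordinates were used.

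Values were taken as log2(signal + 1) without further normalization, with the highest-mean probe set per gene and the filter given above. All genes were fitted at once on the 9 arrays (limma 3.58.1, R 4.3.3, 6 residual and 5.50 prior degrees of freedom), two-sided, with Benjamini-Hochberg adjustment over 8121 genes. Lists were described by counts and medians, without a list test. The fit was tested on simulated data. The number of arrays limits the precision.

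The members and lists were chosen with earlier results of these data known. Named were every gene that passed, those with the smallest p in each subunit with their arrays, those with the highest and lowest signal and the least changed, those with disagreeing probe sets, and up to 3 called per related list. mRpL1, mRpL3, mRpL4, mRpL11, mRpL22, mRpL23, mRpL33, mRpS29 and the S18 relatives A and B, and the remaining genes with values that did not pass, were added after their values were seen. Alternatives covered normalization, filter, pseudocount, probe set choice, arrays fitted, weights, a replicate block, a control-ratio covariate and arrays left out.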

Additional observations from a re-analysis of the deposited data

How the results depend on the processing

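The medians of both subunits and the mitochondrial ribosomal protein differences that passed kept their direction under the alternatives run. The other lists were counted under the same alternatives, and those counts are not given here. Counts moved, and so did the share of all genes called. Genes lower at 60d than at 3d numbered 16 (10.6% of all genes), and became 25 with median centring (15.7%), 8 with no filter (5.45%), 3 with the arrays of the 2 ages alone (3.93%), 51 with array weights (26.6%, and 1 higher beside 30.6%), 10 with a replicate block (8.58%), 55 without the first arrays of 3d and 60d (24.9%) and 35 with the GAPDH ratio as a covariate (14.8%). With each array left out in turn they ran from 4 to 36 (4.69% to 14.7%). Genes lower at 30d, 34 with the settings of the report (21.4%), became 55 with median centring (35.6%), 60 with array weights (34.9%), 59 without the first arrays (34.4%) and 58 with the covariate (29.5%), and 16 to 58 with single arrays left out (10.8% to 29.3%). The medians over all genes turned sign under several settings, for example from 0.04 to -0.13 at 60d with median centring and from -0.02 to 0.17 at 30d with no filter. Median centring moved the median over all genes at 30d to -0.28, the medians of the subunits at 30d to -0.75 and -0.69, and the split over all genes at 30d from 1739 lower and 1698 higher to 2888 and 688. Without the first arrays the medians at 60d were -0.54 in both subunits and that of the small subunit at 30d -0.61, and with single arrays left out the latter ran from -0.61 to -0.33. Between 30d and 60d, array weights called 38 genes higher and 6 lower. The 16 genes with unequal intervals became 31 with median centring, 0 with no filter, 55 with array weights, 9 with the replicate block, 44 without the first arrays and 39 with the covariate, and 0 to 44 with single arrays left out. The 23 genes of the F-test became 45, 63, 59 and 52 with median centring, array weights, the first arrays left out and the covariate, and 11 to 53 with single arrays left out. The cause of these shifts was not tested. Leaving out arrays or using 2 ages also leaves fewer arrays to estimate the spread. Deviations from the age mean correlated from -0.33 to 0.14 between arrays of the same replicate number. Between arrays of different numbers they correlated from -0.55 to 0.57. With 3 arrays per age these correlations cannot settle whether the numbers pair the samples, and the block is given for its counts alone. Of the calls, 4 at 60d (mRpL39, mRpL51, mRpS30 and mRpS33) and 15 at 30d held with every single array left out. The groupings of mRpS30 and mRpS18A, and of mRpL47, mRpS24 and mRpS28, were added after seeing the data. The planned search for promoter motifs was not run. Low signal kept mRpL21 and mRpL54 out of the filtered fits.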

Other observations

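A pair of probe sets is annotated to a mitochondrial ribosomal protein gene together with another gene, so that their signal cannot be given to either. The set shared by mRpS10 and CG34316 read 6.54, 6.78 and 6.79 at 3d, 5.97, 5.57 and 5.95 at 30d and 6.15, 5.81 and 6.02 at 60d, with every older array below every 3d array. The set shared by mRpL53 and CG33155 read 8.03, 8.68 and 8.96, then 8.29, 8.34 and 8.30, then 8.76, 8.38 and 8.79, with 3d replicate 1 the lowest of the 9 arrays.

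The spread between the arrays of an age was not even. Over the 68 genes the median SD between the 3d arrays was 0.25, between the 30d arrays 0.09 and between the 60d arrays 0.15, beside 0.23, 0.09 and 0.21 over all genes tested. mRpL18, mRpL4 and mRpL19 had the widest gap between 3d replicate 1 and the other 3d arrays, at -1.04, -0.97 and -0.92. At 60d, mRpS14 on replicate 1 lay 0.73 above both other arrays, mRpS2 and mRpL18 on replicate 2 lay 0.59 and 0.57 below them, and mRpL46 on replicate 2 lay 0.52 above them.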
